A study of Mus musculus with 6 samples.

Results

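The genes described here build and run the vesicle traffic between the endoplasmic reticulum (ER) and the Golgi apparatus. They are 50 named genes of the COPII coat, the COPI coat, their cargo receptors, and the tethers and fusion proteins of the Golgi, out of 53465 genes in the count tables. They were picked by name for their role, and all 50 were present in the tables and passed the filter on low counts. Expression was read by poly(A) RNA sequencing of Royan B20, a mouse embryonic stem cell line, on 0.1% gelatin after 7 passages in R2i with LIF. Every culture received the R2i inhibitors, which are 1 µM PD0329501 (named so in the labels, a MEK inhibitor) and 10 µM SB431542, which blocks the type I receptors of the TGF-beta branch. The BMP-inhibited group (R2i_BMPi, 3 libraries) was further given 250 nM noggin, which binds BMP ligands outside the cell, plus 5 µM dorsomorphin, which inhibits BMP type I receptors and is also known to inhibit AMPK. The control group (R2i_control, 3 libraries) received neither. The labels give no duration of treatment, a single cell line was used, and noggin and dorsomorphin were given together, so their effects cannot be told apart. The comparison asks what adding them does to expression in R2i cells.

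Newly made secretory and membrane proteins leave the ER in vesicles coated with COPII, are sorted by receptors that span the membrane, and fuse with the Golgi through tethers and SNARE proteins. COPI vesicles run the other way and bring back escaped ER residents, among them chaperones whose C-terminal KDEL signal is recognised by KDEL receptors. Many genes of this route are known to be induced when the ER or the Golgi is overloaded, through the factors XBP1, ATF6, members of the CREB3 family and TFE3.

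BMP-inhibited libraries held 31474666 to 33774524 gene counts and control libraries 32720441 to 35322844. The 8 stem cell markers were abundant in both groups, with summed levels of 4051 to 4349 CPM, which are counts scaled to a common library total, in BMP-inhibited and 4908 to 5024 CPM in control libraries. None of the 8 was at 0, 1 was higher and 5 were lower. Markers of other cells moved with the groups too. The 10 trophectoderm markers summed to 312 to 386 CPM in BMP-inhibited and 180.3 to 187 CPM in control libraries, with 6 higher and 0 lower of 8 tested, and none at 0. The 10 markers of the 2-cell-like state summed to 27.5 to 40.7 CPM against 0.0283 to 0.0895 CPM, with 8 higher of 8 tested, and Zscan4c, Zscan4f, Zfp352, Tcstv3, Usp17lc and Tdpoz4 had no counts in controls. The 10 fibroblast markers summed to 47.6 to 51.1 CPM against 54.0 to 57.6 CPM, with 4 higher and 1 lower of 6 tested, and Col3a1 and Lum had no counts in controls. Most of that sum was Fbln1, the 1 that was lower, at 37.0 against 46.2 CPM in controls (TMM-scaled means). Col1a1, Col5a2, Pdgfra and Postn were higher from low levels, with Col1a1 at 3.46 against 1.28 CPM, and Thy1 did not pass. The part of all these markers in the results below was not tested. In bulk RNA, fewer cells of a type and less RNA per cell cannot be told apart.

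Transport genes split in both directions with small changes. Of the 50 members, 15 were higher, 19 were lower and 16 did not pass in BMP-inhibited cells at an adjusted p of 0.05 (edgeR's quasi-likelihood test, Benjamini-Hochberg over all 15951 genes tested). Over all genes tested, 32.5% were higher, 31.7% were lower and 64.2% passed in either direction, so the 68% of members that passed lay near the background. The median log2 fold change (BMP-inhibited over control) was -0.021 for members and -0.0031 for all genes tested. Size differed more than direction. The median absolute log2 fold change was 0.18 for members and 0.37 for all genes tested. Only 6 members, or 12%, passed with a change of at least 1.5-fold, against 29.5% of all genes, and 2 members with at least 2-fold, against 15.5%. Members were also better counted, with a median level of 90.2 CPM against 19.6 CPM. The groups did not overlap for 37 of 50 members (74%), beside 68.6% of all genes tested. Counts are uncertain for 21 members that share sequence with other genes. The exons of 15 overlap an antisense gene (Copa, Copg1, Sec23a, Sec23ip, Sec24c, Arf4, Tmed5, Tmed10, Surf4, Golga2, Gosr2, Preb, Tmed1, Kdelr3 and Yif1a). Those of Tmed7 and Golgb1 overlap a gene on the same strand. Arcn1, Arf1, Sec22b, Tmed2, Tmed7 and Tmed10 share at least 250 bases at 90% identity or more with sequence elsewhere. Identity was 90.8% to 95.2% for the stretches of Tmed7 and 91.1% for that of Sec22b.

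**Figure D1:**
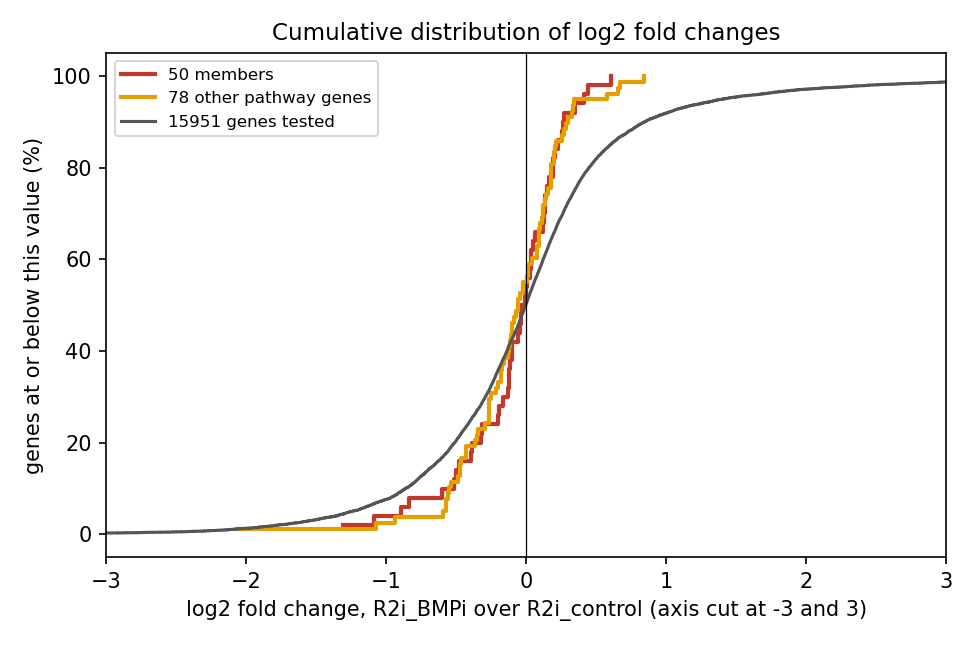
Cumulative share of genes (vertical axis, %) at or below each log2 fold change (horizontal axis, BMP-inhibited over control) for the 50 members, the 78 other pathway genes that were tested and all 15951 genes tested. Both pathway curves are steeper than that of all genes and cross the midline near 0, with a tail of members on the lower side that reaches -1.31.

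Summed over all members the level overlapped between groups after TMM scaling, at 5694 ± 72.5 CPM in BMP-inhibited and 5708 ± 25.05 CPM in control libraries (SD, n = 3 each). Role sums differed in direction. COPII genes summed to 1647 ± 20.8 against 1595 ± 5.16 CPM, and COPI and ARF genes to 2164 ± 31.4 against 2022 ± 19.2 CPM. The p24 receptors summed to 598 ± 10.1 against 623 ± 3.64 CPM, and the other cargo receptors to 700.2 ± 15.8 against 829 ± 9.52 CPM. Tethers, SNAREs and Golgi proteins summed to 584 ± 11.5 against 639 ± 8.32 CPM. On this scale coat sums were above the control range in every BMP-inhibited library, and receptor and tether sums below it. Scaled by library totals, which moved the median of all genes to -0.062 (log2), the COPII sum turned, at 1613 ± 5.47 CPM in BMP-inhibited and 1627 ± 14.6 CPM in control libraries, and the sum over all members was 5574 ± 22.5 against 5822 ± 31.0 CPM with no overlap (SD, n = 3 each). The COPI sum stayed above the control range and the other 3 below it. These sums are dominated by the most abundant members and carry no test.

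**Figure D2:**
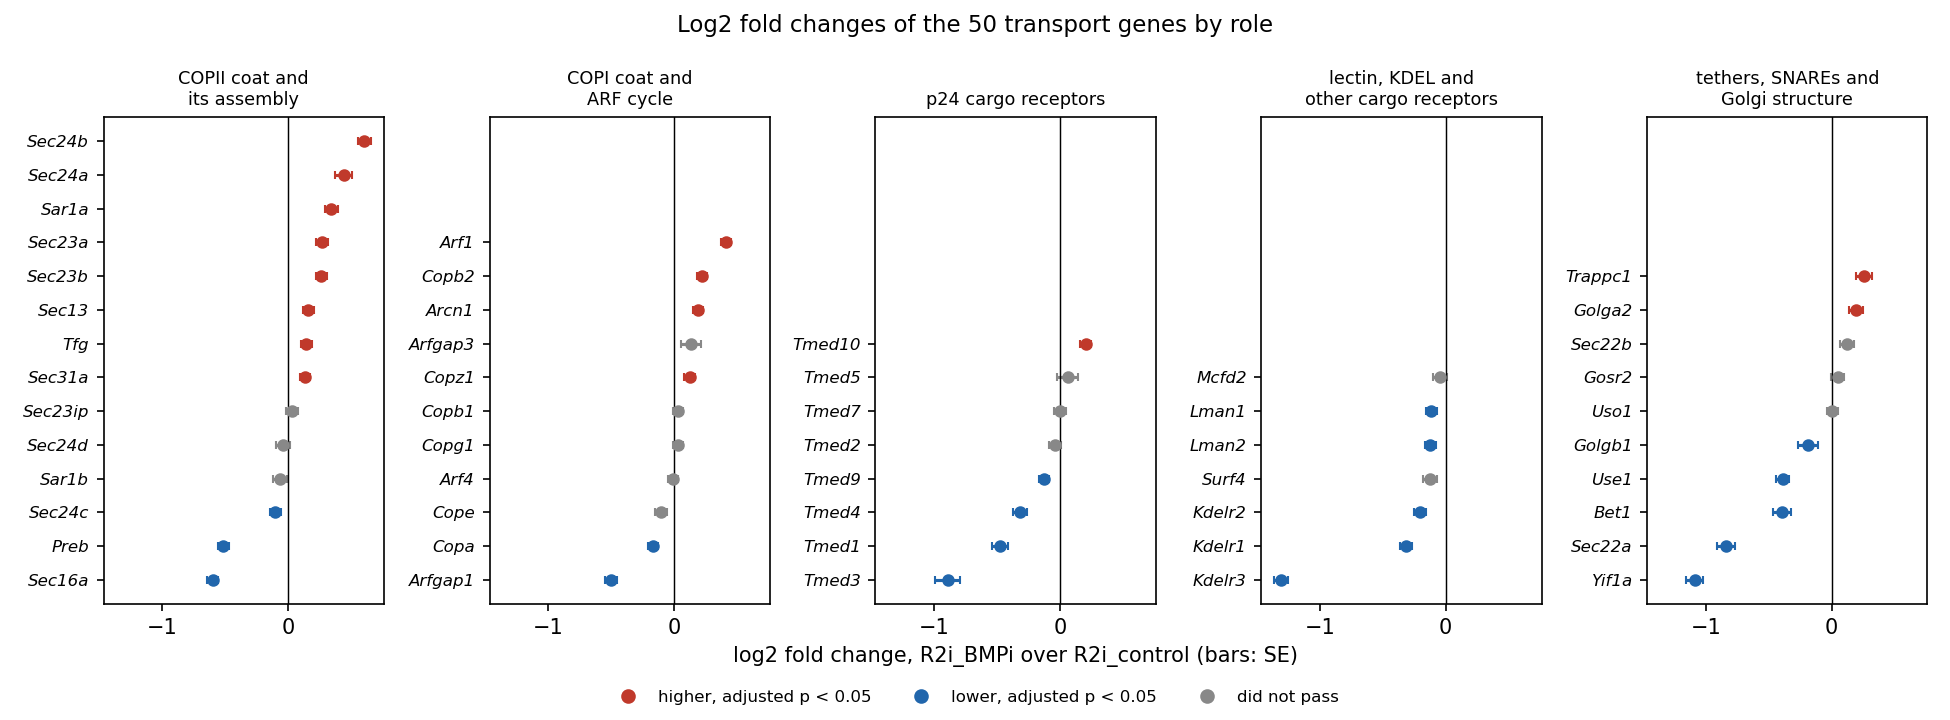
Log2 fold change (horizontal axis, BMP-inhibited over control) with its standard error for each of the 50 members, in 5 panels by role. Red points passed as higher, blue as lower, and grey points did not pass; most coat genes lie within 0.5 of 0, and Kdelr3 at -1.31 and Yif1a at -1.09 lie farthest out.

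Promoter sequence was searched too, and was not itself used to choose the members. Many genes of this route are known to be induced when the ER or the Golgi is overloaded. The motif shares below are therefore not independent of the choice by role. RefSeq windows on GRCm38.p6, from 250 bases before to 50 after a gene's start, were at hand for 43 of the 50 members (50 windows). The Golgi stress element ACGTGGC, searched on both strands, was in 15 of the 50 windows (30%), against 2.58% of all 32851 windows and 2.91% of the windows of protein-coding genes. The core of the unfolded-protein-response element, TGACGTG, was in 8 windows (16%), against 2.01% and 2.17%. Both counts include each of the overlapping Arf1 windows, which hold the same site. The bipartite ER stress element ERSE and its short form ERSE-II were in 0 member windows, and in 0.119% and 0.0365% of all windows. Member windows had a median GC content of 59.3%, against 52.7% for all windows and 56.3% for protein-coding genes, and the shares were not matched for it. The 2 short motifs overlap in TGACGTGGC, which was in 0.201% of all windows and in those of 4 members. The windows of these 4 are printed because they hold the same 9 letters while their genes went different ways. Capitals mark the motif, or its reverse complement in Kdelr3.
Kdelr3, chr15:79516158-79516457, plus strand: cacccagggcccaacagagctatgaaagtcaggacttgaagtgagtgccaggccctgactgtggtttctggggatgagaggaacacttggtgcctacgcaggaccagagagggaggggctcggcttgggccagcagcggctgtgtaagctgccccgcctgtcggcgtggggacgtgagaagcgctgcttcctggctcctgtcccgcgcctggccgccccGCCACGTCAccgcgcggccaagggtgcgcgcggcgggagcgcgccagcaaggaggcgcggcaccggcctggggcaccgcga
Arf1, chr11:59228113-59228412, minus strand: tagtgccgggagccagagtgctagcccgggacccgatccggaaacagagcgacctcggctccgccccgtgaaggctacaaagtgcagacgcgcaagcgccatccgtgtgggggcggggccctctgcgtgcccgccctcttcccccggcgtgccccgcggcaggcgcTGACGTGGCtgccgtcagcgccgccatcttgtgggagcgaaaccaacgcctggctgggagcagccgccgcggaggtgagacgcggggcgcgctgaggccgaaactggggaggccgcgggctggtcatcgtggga
Sec23a, chr12:59011968-59012267, minus strand: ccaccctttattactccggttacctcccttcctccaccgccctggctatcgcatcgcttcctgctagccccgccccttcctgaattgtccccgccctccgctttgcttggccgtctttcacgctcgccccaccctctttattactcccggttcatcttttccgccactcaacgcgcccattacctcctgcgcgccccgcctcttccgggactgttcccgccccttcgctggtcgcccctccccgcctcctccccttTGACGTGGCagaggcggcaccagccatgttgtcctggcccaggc
Sec24d, chr3:123267246-123267545, plus strand: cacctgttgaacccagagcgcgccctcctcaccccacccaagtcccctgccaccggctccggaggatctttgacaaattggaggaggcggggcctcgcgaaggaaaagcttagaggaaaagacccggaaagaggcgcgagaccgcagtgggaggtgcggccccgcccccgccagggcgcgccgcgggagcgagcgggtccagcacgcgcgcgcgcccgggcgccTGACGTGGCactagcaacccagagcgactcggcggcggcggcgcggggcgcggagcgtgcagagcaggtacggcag
The motif begins 31 bases before the start in Kdelr3, 84 before the printed start in Arf1, 26 before in Sec24d and 6 after it in Sec23a. Arf1 has a second annotated start, in the window chr11:59228218-59228517, and the same motif begins at base 21 after that one. Kdelr3 fell, Arf1 and Sec23a rose, and Sec24d did not pass. Of the 14 members with ACGTGGC, 5 were higher, 5 were lower and 4 did not pass, and of the 7 members with TGACGTG, 3 were higher, 2 were lower and 2 did not pass. Over all genes tested, 32.5% were higher and 31.7% lower. A match to these letters is a description of the sequence and not a binding site.

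More COPII genes rose than fell. Of 14 members 8 rose, 3 fell and 3 did not pass, with a median log2 fold change of 0.14. In shares, 57.1% were higher and 21.4% lower, beside 32.5% and 31.7% of all genes tested. The 2 that fell most were Sec16a and Preb. Sec16a (ENSMUSG00000026924, chromosome 2, 26409431 to 26445216), the scaffold that organises ER exit sites, had 156, 149.8 and 141 CPM in BMP-inhibited libraries, against 223, 231 and 223 CPM in control libraries. Its log2 fold change was -0.60 (SE 0.045, adjusted p = 1.64e-08, edgeR) and the groups were far apart. Preb, the mammalian SEC12 that loads GTP onto SAR1, had 76.7, 74.03 and 79.6 CPM, against 108, 111 and 110.5 CPM in controls (log2 fold change -0.51, SE 0.046, adjusted p = 1.09e-07). Preb overlaps the antisense gene Abhd1, which was at 2.34 CPM in BMP-inhibited and 4.65 CPM in control libraries.

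The cargo-binding SEC24 proteins come from 4 genes, and these did not move alike. Sec24b (ENSMUSG00000001052, chromosome 3, 129982759 to 130061553) had 105, 91.6 and 96.2 CPM in BMP-inhibited and 65.5, 63.4 and 62.9 CPM in control libraries, the largest rise among members (log2 fold change 0.61, SE 0.054, adjusted p = 1.02e-07). Its close relative Sec24a had 60.1, 50.2 and 55.5 CPM, against 38.2, 42.7 and 40.98 CPM in controls (log2 fold change 0.44, SE 0.069, adjusted p = 3.91e-05). BMP-inhibited replicate 1 was highest for both genes, and neither group reached into the other. The other subclass did not rise, with Sec24d at 39.9 ± 1.34 against 40.98 ± 0.379 CPM (adjusted p = 0.564) and Sec24c at 173 ± 6.12 against 185 ± 0.786 CPM (SD, n = 3 each, edgeR fit). Sec24c just passed as lower (log2 fold change -0.10, adjusted p = 0.0494). Its call was lost without control replicate 1, 2 or 3 (adjusted p = 0.123, 0.0820 and 0.107), without BMP-inhibited replicate 2 or 3 (0.135 and 0.0534), with DESeq2 (0.0739), with its size factors in edgeR (0.0599), with no count filter (0.0750) and with a replicate block (0.0660).

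Of the remaining COPII genes, Sar1a, one of the GTPases that begin coat assembly, rose by 0.35 on the log2 scale, while Sar1b was at -0.061 and did not pass (adjusted p = 0.355). Sec23a and Sec23b, which encode the partner of SEC24 that makes SAR1 hydrolyse GTP, rose by 0.27 and 0.27. The outer cage genes Sec13 and Sec31a rose by 0.16 and 0.14, and Tfg, which organises exit sites, by 0.15. The Sec31a call was lost without control replicate 3 (adjusted p = 0.0623) and with library totals only (0.0972), and the Tfg call with library totals only (0.0801). Sec23ip, which encodes a partner of SEC23, had 83.99, 89.3 and 84.7 CPM, against 83.5, 84.8 and 83.5 CPM in controls, and the groups overlapped (log2 fold change 0.034, adjusted p = 0.534).

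Changes were small among the chosen COPI members. Of 11 members of the COPI and ARF group 4 rose, 2 fell and 5 did not pass, with a median of 0.033, and none passed with 1.5-fold. Among the 7 coatomer subunit genes that are members, 3 rose and 1 fell, and these 7 lay between -0.17 and 0.23. The shares called were 54.5% of the group and 57.1% of the coatomer genes, beside 64.2% of all genes tested. The 2 coatomer genes outside the members lay farther out. Copg2, a second gene for the gamma subunit, fell, with 89.1 ± 1.12 against 125 ± 3.98 CPM (SD, n = 3 each; log2 fold change -0.48, SE 0.044, adjusted p = 1.44e-07, edgeR), and Copz2, a second gene for the zeta subunit, rose by 0.67 from a low level. Copb2, the beta-prime subunit, had 200.4, 201 and 203 CPM in BMP-inhibited and 172, 171 and 175 CPM in control libraries (log2 fold change 0.23, SE 0.04, adjusted p = 0.000122). Arcn1, the delta subunit, had 512, 486 and 496 CPM, against 433, 429 and 447 CPM in controls (log2 fold change 0.19, SE 0.039, adjusted p = 0.000559). Copz1 rose by 0.13 and Copa, the alpha subunit gene, had a log2 fold change of -0.17. Copb1, Copg1 and Cope were at 0.033, 0.03 and -0.10 and did not pass (adjusted p = 0.518, 0.518 and 0.0704). The Copz1 call was lost without control replicate 1, 2 or 3 (adjusted p = 0.0782, 0.0601 and 0.0898), without BMP-inhibited replicate 3 (0.0742) and with library totals only (0.188), while Cope passed as lower when scaled by library totals (0.00776) or by upper-quartile factors (0.0398). Per kilobase of annotated exon, coatomer levels ran from 21.6 (Copg1) to 44.6 (Copz1) CPM in BMP-inhibited and from 21.1 to 40.8 CPM in control libraries.

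Arf1 and Arfgap1 moved in opposite directions. Arf1, the GTPase that brings coatomer to the membrane, had 354, 350.3 and 375 CPM in BMP-inhibited and 275, 261 and 273 CPM in control libraries (log2 fold change 0.42, SE 0.043, adjusted p = 5.04e-07). Arfgap1, which switches ARF1 off, had 65.1, 61.7 and 61.9 CPM, against 89.3, 88.9 and 88.4 CPM in controls (log2 fold change -0.50, SE 0.047, adjusted p = 2.1e-07). Arf1 was higher and Arfgap1 lower in all 3 BMP-inhibited libraries. Outside the members, the ARF activator genes Gbf1 and Arfgef1 were lower, with log2 fold changes of -0.47 and -0.26 (adjusted p = 4.15e-07 and 0.0017, edgeR). Arfgef2 was at -0.02 and did not pass (adjusted p = 0.742). Arf3 and Arfgap2, also outside the members, were lower, at -0.34 and -0.29 (adjusted p = 3.98e-06 and 6.61e-05, edgeR). Arf2 rose by 0.84, and Arf5 did not pass (adjusted p = 0.0705). ARF1 activity was not measured. Arfgap3 was at 17.8 ± 0.985 against 16.2 ± 0.449 CPM (SD, n = 3 each) and did not pass (adjusted p = 0.142, edgeR). Arf4 had 153, 154 and 159 CPM, against 155, 154 and 159 CPM in controls, with overlapping groups and a log2 fold change of -0.0073.

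**Figure D3:**
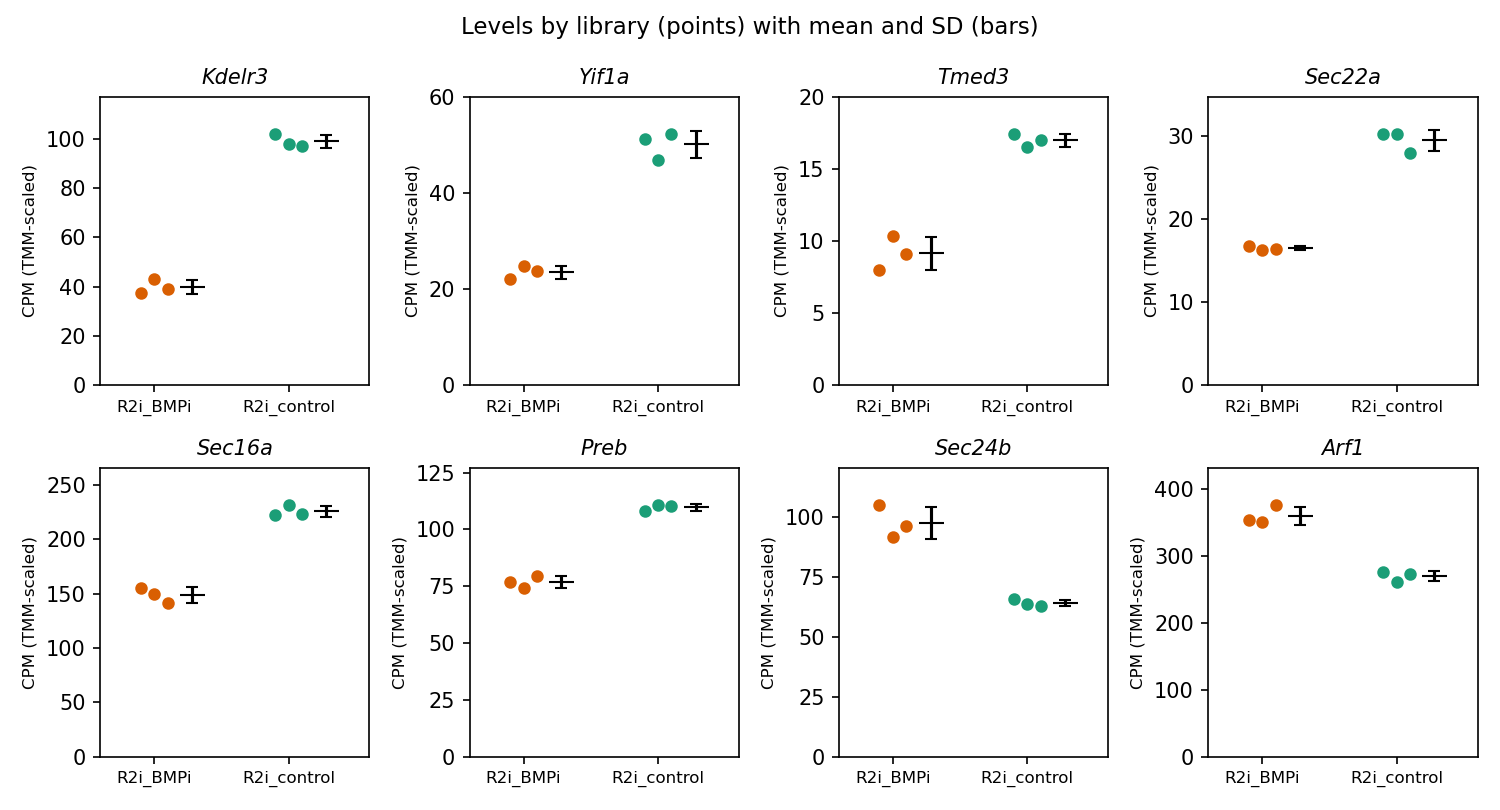
TMM-scaled CPM (vertical axis, from 0) of 8 members in each library, with BMP-inhibited libraries at the left of each panel and control libraries at the right; black bars are mean and SD. Kdelr3, Yif1a, Tmed3, Sec22a, Sec16a and Preb lie lower in all 3 BMP-inhibited libraries and Sec24b and Arf1 higher, with no overlap in any panel.

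The p24 proteins, encoded by Tmed genes, are small membrane receptors that cycle between ER and Golgi and carry GPI-anchored proteins among other cargo. Of 8 members 4 fell, 1 rose and 3 did not pass (median -0.081). The 62.5% that passed lay near the 64.2% of all genes tested. Tmed3 (ENSMUSG00000032353, chromosome 9, 89699206 to 89705068), of the gamma subfamily and the scarcest of the 50 members by CPM in BMP-inhibited libraries, had 8.01, 10.3 and 9.14 CPM in BMP-inhibited and 17.4, 16.6 and 17.01 CPM in control libraries. Its log2 fold change was -0.89 (SE 0.10, adjusted p = 1.22e-06, edgeR). Tmed1, of the same subfamily, had 36.8, 36.1 and 42.03 CPM, against 53.5, 54.5 and 52.1 CPM in controls (log2 fold change -0.48, SE 0.064, adjusted p = 8.64e-06). The other gamma genes, Tmed5 and Tmed7, overlapped between groups. Tmed7 had 95.005, 92.9 and 98.9 CPM, against 91.5, 97.5 and 97.9 CPM in controls (log2 fold change -0.00056), and Tmed5 was at 0.063 on the log2 scale (adjusted p = 0.993 and 0.516).

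In the alpha subfamily Tmed4 had 44.1, 42.4 and 45.7 CPM in BMP-inhibited and 56.1, 55.03 and 53.9 CPM in control libraries (log2 fold change -0.32, SE 0.055, adjusted p = 9.73e-05), and Tmed9 had a log2 fold change of -0.13. The Tmed9 call was lost without control replicate 1 (adjusted p = 0.0719). Tmed10, the delta member that pairs with the beta member TMED2, was the one that rose, with 167, 168 and 169 CPM against 151, 143 and 143 CPM in controls (log2 fold change 0.21, SE 0.042, adjusted p = 0.000484). Tmed2 itself was at 69.02 ± 1.39 against 70.7 ± 0.613 CPM (SD, n = 3 each) and did not pass (adjusted p = 0.528, edgeR). Tmed1 overlaps the antisense gene Dnm2, whose log2 fold change was 0.17. Tmed2 and Tmed10 have near-identical copies elsewhere in the genome, so reads from shared stretches may be missing from their counts.

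No member among the lectin, KDEL and other cargo receptors rose. Of 7 members 5 fell and 2 did not pass (median -0.12). That is 71.4% called, beside 64.2% of all genes tested, of which 32.5% were higher and 31.7% lower. Among related genes outside the members, Cnih1 and Ergic2 rose by 0.30 and 0.29 on the log2 scale. Lman2l and Ergic1 were lower, at -0.55 and -0.26, and Cnih4 and Ergic3 did not pass. All 3 KDEL receptor genes fell, and by unequal amounts. Kdelr3 (ENSMUSG00000010830, chromosome 15, 79516411 to 79527739) had 37.6, 42.99 and 38.98 CPM in BMP-inhibited libraries, against 102, 97.7 and 97.01 CPM in control libraries. This was the largest change among members, with the log2 fold change at -1.31 (SE 0.057, adjusted p = 3.91e-11, edgeR), and a wide gap separated the groups. Kdelr1 had 65.1, 71.6 and 68.03 CPM, against 85.1, 83.6 and 86.1 CPM in controls (log2 fold change -0.32, SE 0.05, adjusted p = 4.71e-05). Kdelr2 had 77.9, 83.2 and 82.2 CPM, against 96.4, 89.2 and 94.9 CPM in controls (log2 fold change -0.20, SE 0.049, adjusted p = 0.00188). Per kilobase of exon, Kdelr3 was the least abundant of the 3 in BMP-inhibited cells and the most abundant in controls, at 28.2 CPM in BMP-inhibited and 70.03 CPM in control cells. On the same scale Kdelr2 was at 44.3 CPM in BMP-inhibited and 51.1 CPM in control cells, and Kdelr1 at 36.4 against 45.3 CPM in controls. Kdelr3 overlaps the antisense gene Ddx17, at 551 CPM in BMP-inhibited and 687 CPM in control libraries, a log2 fold change of -0.32.

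Lman1 and Mcfd2 encode the lectin and its partner that carry blood clotting factors out of the ER. Lman1 had a log2 fold change of -0.11, and Mcfd2 had 60.1, 53.997 and 60.5 CPM, against 61.1, 59.6 and 59.2 CPM in controls, with overlapping groups (log2 fold change -0.042, adjusted p = 0.525). Lman2, a lectin of the early secretory route, had 165, 165 and 176 CPM, against 181, 187 and 182 CPM in controls (log2 fold change -0.12, SE 0.043, adjusted p = 0.023). Surf4, a receptor for soluble cargo, was at 125 ± 9.79 against 136 ± 6.27 CPM (SD, n = 3 each) and did not pass (adjusted p = 0.0659, edgeR). These calls changed when single libraries were left out, though the log2 fold changes of Lman1 and Lman2 moved little. The Lman1 call was lost without control replicate 1 or 3 or BMP-inhibited replicate 3 (adjusted p = 0.109, 0.0677 and 0.0810). Its log2 fold changes there were -0.104, -0.121 and -0.096. The Lman2 call was lost without control replicate 2 (adjusted p = 0.0734), at a log2 fold change of -0.115. Surf4 passed as lower without control replicate 3 or BMP-inhibited replicate 3 (0.0358 and 0.00691), when scaled by library totals (0.00925) or by upper quartiles (0.0359), and with no count filter (0.0331).

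Among tethers, SNAREs and Golgi proteins 5 of 10 fell, 2 rose and 3 did not pass (median -0.093). The 70% that passed lay near the 64.2% of all genes tested. Yif1a (ENSMUSG00000024875, chromosome 19, 5088538 to 5092881), a membrane-spanning protein of the ER-Golgi boundary that pairs with YIPF proteins, had 22.1, 24.8 and 23.8 CPM in BMP-inhibited and 51.2, 47.01 and 52.3 CPM in control libraries. Its log2 fold change was -1.09 (SE 0.067, adjusted p = 1.56e-09, edgeR). Yif1a overlaps the antisense gene Cnih2, which was at 2.99 CPM in BMP-inhibited and 1.68 CPM in control libraries. Sec22a (ENSMUSG00000034473, chromosome 16, 35311131 to 35363918), a relative of the SNARE gene Sec22b, had 16.8, 16.3 and 16.4 CPM, against 30.2, 30.3 and 28.01 CPM in controls (log2 fold change -0.84, SE 0.07, adjusted p = 5.27e-08). Both genes were separated by a wide gap between groups.

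The SNARE genes moved unevenly. Bet1, which encodes a SNARE of ER-to-Golgi fusion, had 18.8, 19.2 and 17.5 CPM in BMP-inhibited and 24.2, 24.3 and 24.3 CPM in control libraries (log2 fold change -0.39, SE 0.072, adjusted p = 0.000177). Use1, an ER SNARE for returning COPI vesicles, had 56.96, 63.2 and 60.8 CPM, against 79.4, 77.7 and 79.7 CPM in controls (log2 fold change -0.39, SE 0.052, adjusted p = 8.61e-06). The SNARE genes Sec22b and Gosr2, also members, were at 0.12 and 0.048 on the log2 scale and did not pass (adjusted p = 0.0595 and 0.455). Outside the members, the SNARE genes Stx5a, Bnip1 and Stx18 had log2 fold changes of -0.53, -0.43 and -0.20 (adjusted p = 3.06e-07, 0.00042 and 0.0348, edgeR). Gosr1, Ykt6 and Bet1l did not pass (adjusted p = 0.34, 0.0878 and 0.62), and Sec22c rose by 0.58. Sec22b passed as higher without control replicate 1 (adjusted p = 0.0409), without BMP-inhibited replicate 2 (0.0362) and with the stricter count filter (0.0472).

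Of the tethers, Golga2, which encodes the Golgi matrix protein GM130, and Trappc1, a core subunit of the TRAPP tether, rose by 0.20 and 0.26. TRAPP genes outside the members went both ways. Trappc2l, Trappc3, Trappc6b, Trappc9 and Trappc13 were lower, at -0.46, -0.21, -0.18, -0.25 and -0.59. Trappc4, Trappc8 and Trappc10 rose by 0.14, 0.18 and 0.20, and Trappc2, Trappc5, Trappc6a, Trappc11 and Trappc12 did not pass. Uso1, the tether p115 that GM130 binds, had 133, 127 and 129 CPM, against 132, 126 and 129 CPM in controls, and the groups overlapped (log2 fold change 0.0044, adjusted p = 0.934). Golgb1, the giant Golgi tether giantin, had 107, 85.4 and 80.7 CPM, against 107, 106 and 99.6 CPM in controls. BMP-inhibited replicate 1 lay above every control and the other two below, and Golgb1 just passed (log2 fold change -0.19, adjusted p = 0.045). Its call was lost without control replicate 1, 2 or 3 (adjusted p = 0.133, 0.116 and 0.0555), without BMP-inhibited replicate 2 or 3 (0.117 and 0.261), with DESeq2's size factors (0.0515) and with the stricter count filter (0.0537).

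Paralogs among the members were compared as the share of each in the CPM per kilobase of exon summed over the members of its family, which removes scaling between libraries. For 15 of 17 shares the groups did not overlap. In level, 68.6% of all genes tested did not overlap, and no such background was computed for shares, so the count is not a result about these families. With 3 libraries against 3 the exact two-sided permutation test cannot go below 0.10, and those 15 shares stood at that smallest value (adjusted p = 0.113 over the 17 shares). Kdelr3 made up 25.9% ± 0.695 of KDEL receptor transcripts in BMP-inhibited and 42.1% ± 0.699 in control libraries (SD, n = 3 each; exact p = 0.1), a difference of -16.2 percentage points. Sec22a made up 16.2% ± 0.282 of Sec22a and Sec22b together, against 27.3% ± 0.588 in controls, with the same exact p. In the SEC24 family Sec24b took 29.3% ± 0.906 against 21.1% ± 0.442 in controls, and Sec24c 49.8% ± 0.682 against 58.5% ± 0.260. Sar1a took 54.9% ± 2.09 of the SAR1 pair, against 47.9% ± 0.694 in controls, and Arf1 79.98% ± 0.279 of Arf1 and Arf4, against 74.9% ± 0.460. Arfgap1 took 71.6% ± 1.59 of Arfgap1 and Arfgap3, against 79.7% ± 0.423 in controls. The SEC23 pair kept its balance within the spread, with Sec23a at 48.7% ± 0.538 in BMP-inhibited and 48.5% ± 1.65 in control libraries (exact p = 0.8). The 2 shares of a pair are not independent, since they sum to the whole. Expressed paralogs outside the members change these values in 3 families. Over Arf1 to Arf5, Arf1 took 53.4% ± 0.244 in BMP-inhibited and 47.7% ± 0.700 in control libraries. With Arfgap2 counted, which was the most abundant of its family, Arfgap1 took 33.03% ± 0.997 against 37.5% ± 0.496, and with Sec22c counted, Sec22a took 13.6% ± 0.251 against 24.4% ± 0.348 (SD, n = 3 each).

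**Figure D4:**
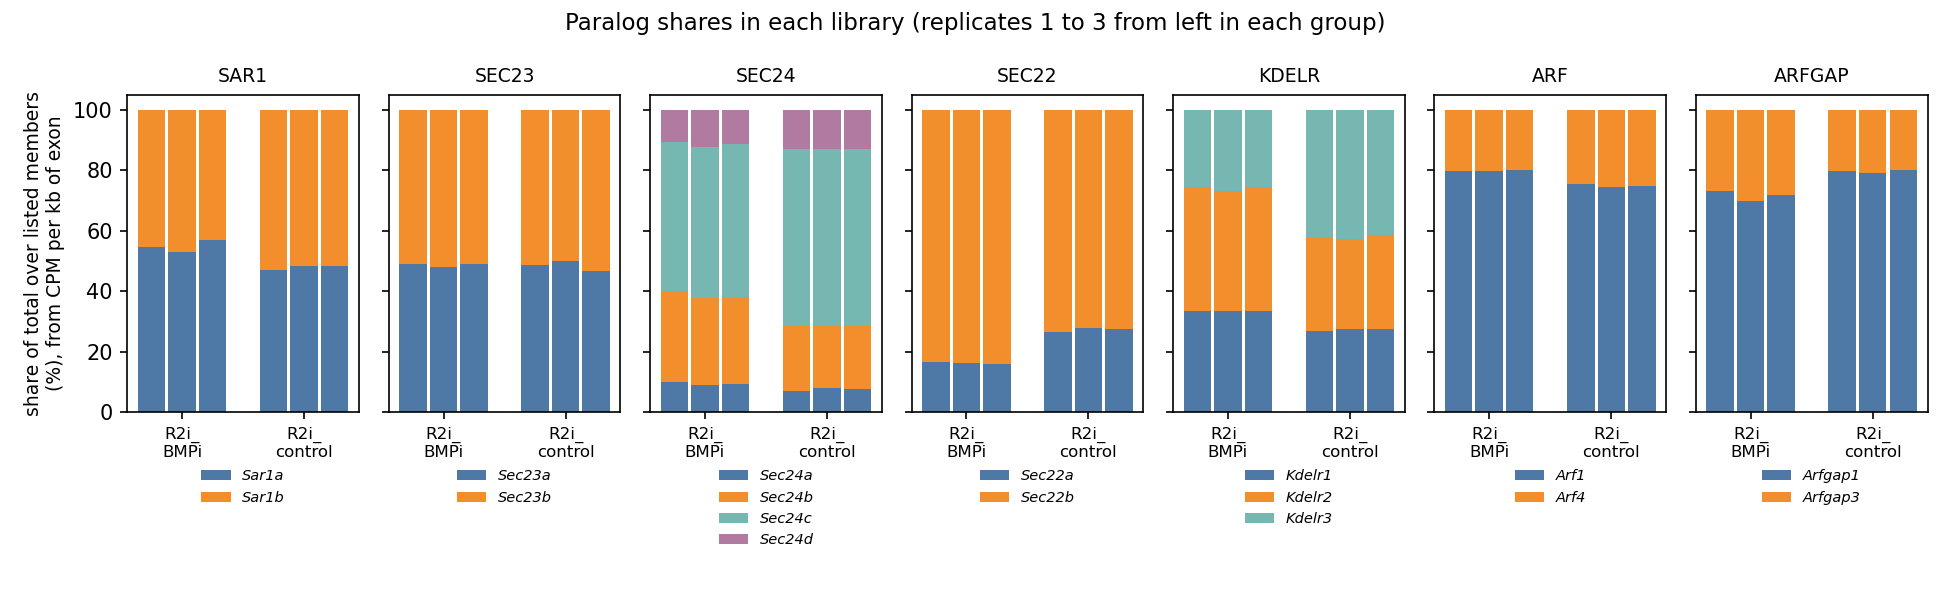
Share (vertical axis, % of CPM per kilobase of exon summed over the listed members) of each paralog in 7 families, with Arf2, Arf3, Arf5, Arfgap2 and Sec22c left out, 1 bar per library, with the 3 BMP-inhibited libraries at the left of each panel and the 3 control libraries at the right. The Kdelr3 segment shrinks to 25.9% on average in BMP-inhibited libraries, against 42.1% in controls, and the SEC23 bars match within the spread.

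Other genes of the same route, 82 in all, showed the same mixture. Of the 78 that passed the count filter 22 rose, 30 fell and 26 did not pass, which is 66.7% called beside 64.2% of all genes tested, with a median of -0.058. Sec16b, Lman1l, Tmed6 and Tmed11 did not pass the filter. The largest rises were those of Arf2, another ARF GTPase, at 0.84 (88.9 ± 8.95 against 49.6 ± 1.48 CPM, SD, n = 3 each), Copz2, an alternative zeta subunit of coatomer, at 0.67 from levels of 3.29 ± 0.754 against 2.07 ± 0.511 CPM, Yipf5 at 0.65 and Sec22c at 0.58. Copz2 overlapped between groups. The largest falls were those of Sec31b, a second gene for the outer COPII cage, at -2.06 (1.32 ± 0.258 against 5.51 ± 0.282 CPM), Yipf2 at -1.07, Creb3l2 at -0.93 and the TRAPP subunit gene Trappc13 at -0.59. Creb3l2 encodes an ER-bound transcription factor known to activate Sec23a in mouse cartilage. It had 12.1, 11.3 and 13.98 CPM in BMP-inhibited and 24.7, 23.8 and 23.1 CPM in control libraries, while Sec23a rose. A link between these genes was not tested. By size of log2 fold change, Sec31b moved more than the more abundant Sec31a, and Sec22a and Sec22c more than Sec22b. Counts are uncertain for some of these genes too. Exons of Sec31b overlap Gm20538 on the same strand. Those of Yipf2 overlap the antisense genes Carm1 and Timm29, and those of Copg2 the antisense gene Mest.

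The median coefficient of variation of CPM over the 3 libraries was 3.58% in BMP-inhibited and 2.09% in control libraries for members, 4.67% and 2.98% for the other pathway genes, and 8.39% and 4.70% for all genes tested. Median levels were 90.2, 57.7 and 19.6 CPM in these 3 sets, and the variation was not matched for level. Among the 34 called members, BMP-inhibited replicate 2 was the library nearest the control mean for 16, replicate 1 for 13 and replicate 3 for 5. These are 47.1%, 38.2% and 14.7% of the called members, against 48.9%, 28.6% and 22.4% of all called genes with counts in every library.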

How the data were processed

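The authors deposited raw read counts per gene, 1 table per library, per the labels and the whole-number values. Tools listed, without roles, in the submitters' processing notes are STAR 2.6.1, HTSeq 0.9.1, cutadapt 1.4.2, DESeq2 and CASAVA 1.8.2, with the build GRCm38.p6. The library kit was a stranded one, per the labels' protocols; the annotation release and the strand setting of the counting are not given in the sources used here. The 5 rows that name no gene held 25.6% to 26.4% of reads and were left out. Reads with several alignments are among them.

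GENCODE M21 on the same build gave symbols, positions and exon lengths for 53360 of 53465 identifiers. Of the 50 members, 21 are uncertain: 15 overlap an antisense gene's exons, 2 a same-strand gene's, and 6 have a copy elsewhere sharing at least 250 bases at 90% identity (BLAST 2.17.0).

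Groups were compared in R 4.3.3 with edgeR 4.0.16 (default count filter, minimum 10, total 15; TMM scaling; quasi-likelihood test; two-sided; Benjamini-Hochberg over all genes tested; threshold 0.05). Levels are TMM-scaled CPM computed from the deposited counts; marker sums use library totals. The standard error is the unshrunk log2 fold change over the root of its F value. The median standard error was 0.048 for members. Biological replicates are stated in the labels, but not that cultures were separate, so p-values measure the spread between these libraries. The test was checked on simulated counts of 15719 genes, with 50 genes changed at each of 1.3-, 1.5-, 2- and 4-fold. It recovered 92% at 1.3-fold and 100% at the larger folds, and 2.97% of calls were false. Few genes changed there and both groups had the same scatter, while 64.2% of real genes were called. The check therefore cannot vouch for TMM scaling or error rates in these data. Alternatives were DESeq2 1.42.0, limma-voom (limma 3.58.1), 3 other scalings, 2 other count filters, a replicate block and leaving out each library. Paralog shares used exact permutation (scipy 1.17.1).

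The members and lists were chosen with earlier results of these data known. Per-library values were given, by rule, for the 4 called members of each role with the largest absolute change and the 1 with the smallest; of the other pathway genes, the 4 largest rises and falls were named. Library values of Golgb1 and Creb3l2 were added after they were seen. So were the values of Copg2, of the wider families, and of single fibroblast markers. The same holds for SNARE genes, TRAPP genes, Arf3, Arf5, Arfgap2, ARF activators and receptor relatives outside the members.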

Additional observations from a re-analysis of the deposited data

How the results depend on the processing

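Members called higher numbered 15 and lower 19. Over the 8 settings that changed the tool, scaling, filter or block these were 12 to 16 and 17 to 21, and leaving out each library in turn gave 13 to 16 and 15 to 19. Leaving out the 21 members with an overlapping gene or similar stretch elsewhere left 10 higher and 12 lower of 29, since fewer were counted. That alternative was chosen after seeing the data. The counts by role and over all genes stayed within 1.5 times in every setting run. Library totals only gave 4537 genes higher and 5692 lower of all tested, against 5180 and 5056, and moved the median of all genes to -0.062.

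Over all 50 members and 14 alternatives, 642 values kept their direction and side of the threshold, 29 calls of 8 members were lost (Sec24c, Golgb1, Copz1, Lman1, Sec31a, Tfg, Tmed9 and Lman2), 10 were gained by Cope, Sec22b and Surf4, and 19 values of 8 members changed sign, none of them called in either setting. With library totals only, Copb1 was at -0.026, Copg1 at -0.029 and Gosr2 at -0.011. Sec23ip was at -0.024 with library totals only. Uso1 was at -0.054 with library totals only, -0.012 with upper-quartile factors, and -0.021 to 0.023 when each library was left out, with -0.014 without BMP-inhibited replicate 1, -0.021 without control replicate 2 and -0.00034 without control replicate 3. Tmed7 was at 0.0039 with DESeq2 and with its size factors in edgeR, 0.0035 with the stricter filter, and -0.035 to 0.023 when each library was left out (main value -0.00056). When each library was left out, Arf4 ran from -0.024 to 0.0052 and Mcfd2 from -0.069 to 0.011, with Mcfd2 above 0 without BMP-inhibited replicate 2. The cause was not tested. Without division by exon length, 9 of the 17 share differences moved by more than the SD and none changed sign, Kdelr3 to -14.6 points. Counting all listed paralogs, an alternative chosen after seeing the data, moved 5 of 6 shares, also with no change of sign. Another so chosen, scaling the sums by library totals, took the COPII difference (BMP-inhibited minus control) to -14.6 CPM, against 51.7 CPM with TMM.

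Groups share replicate numbers only. Deviations of same-numbered libraries correlated at -0.044, 0.0079 and 0.029, and not every library correlated best with its own number. With the replicate block 15 members were higher and 18 lower, the Sec24c call being lost. Counting error is greatest for the scarcest members, Tmed3 among them at 9.16 CPM in BMP-inhibited libraries.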
